A study of Homo sapiens with 4 samples.

Results

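The zinc finger genes of chromosome 19 were followed in SUM159, an established line of triple-negative breast cancer, by RNA sequencing of 4 libraries with 1 library per condition. Cells were left untreated or received palbociclib alone, indisulam alone or the 2 drugs in combination. CDK4 and CDK6, kinases that drive entry into S phase, are blocked by palbociclib. Indisulam is a molecular glue between RBM39, a splicing factor, and the E3 ligase adaptor DCAF15, and RBM39 is degraded as a result. The labels give 0.5 µM palbociclib and 2 µM indisulam for 10 days, whereas the text on the series gives 2 µM and 3 µM for 16 h and speaks of technical duplicates, so that dose and duration are left open and pooling of duplicates is not stated. No other allele or agent is named for any library, and the control was a library of untreated cells of the same line.

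The genes described here were chosen by their measured level. They are the protein-coding genes of chromosome 19 whose symbol is ZNF followed by a number and whose mean level over the 4 libraries was 5 CPM (reads relative to the gene reads of the library, in the usual CPM unit) or more. The annotation held 249 such symbols, 85 on the short arm (19p) and 164 on the long arm (19q). At least 1 read was present for 239 of them, and 152 reached the level and are called members, 40 on 19p and 112 on 19q, among 60279 genes in the count tables. The other 97 stayed under 5 CPM, 46 of them between 1 and 5 CPM and 51 under 1 CPM. The members just inside the limit were ZNF749 with a mean of 5.13 CPM, ZNF85 with 5.17 CPM and ZNF805 with 5.29 CPM. Just outside it were ZNF235 with 4.99 CPM, ZNF836 with 4.87 CPM and ZNF17 with 4.76 CPM. Because the level is a mean over treated and untreated libraries, a gene low in 1 library could enter through the others, and 23 members were under 5 CPM in the untreated library against 7, 7 and 5 in the palbociclib, indisulam and combination libraries.

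Most genes of this family encode proteins with a row of C2H2 zinc fingers, short units in which a pair of cysteines and a pair of histidines hold a zinc ion and neighbouring residues read DNA. Many of them also carry a KRAB domain at the start of the protein, which binds TRIM28 (KAP1) and through it the histone methyltransferase SETDB1 and HP1 proteins, so that the bound DNA is silenced. KRAB zinc finger genes multiplied by tandem duplication, lie in clusters on chromosome 19, and are best known for silencing transposable elements. A KRAB pattern was found in the coding sequence of 128 members and not found in 24. The members held between 1 and 31 fingers with a median of 12, the highest number being that of ZNF91, which is known to silence SVA retrotransposons.

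The coding bases of 1 finger are shown as examples for the members called higher in both ratios of indisulam (ZNF320 and its neighbour ZNF468) and for ZNF91. Each is the earliest regular 28-residue finger unit of the gene's longest complete coding sequence in GENCODE on GRCh38. The units start at residues 163, 245 and 212 and are not matched fingers. They are read 5′ to 3′ on the minus strand, and capitals mark the codons of the 2 cysteines and the 2 histidines.
ZNF320, chr19:52881556-52881639: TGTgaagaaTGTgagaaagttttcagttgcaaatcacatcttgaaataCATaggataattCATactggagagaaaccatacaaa
ZNF468, chr19:52841478-52841561: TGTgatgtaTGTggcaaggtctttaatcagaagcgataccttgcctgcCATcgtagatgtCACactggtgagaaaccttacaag
ZNF91, chr19:23362262-23362345: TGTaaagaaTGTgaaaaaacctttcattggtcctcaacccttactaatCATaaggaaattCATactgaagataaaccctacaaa
Of the 84 bases, 54 were the same in ZNF468 and ZNF320 and 58 in ZNF91 and ZNF320. Reads that matched more than 1 place were not counted for a gene. The share of a member's 65-base windows that occur exactly in a transcript of another ZNF gene was 0% at the median and 35.8% at the highest. In all, 43 members shared 1% or more. Genes with other symbols were not searched.

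Reads in genes numbered 12555908 in the shallowest library and 16712174 in the deepest, and a gene with 3 reads stood at between 0.180 and 0.239 CPM. ESR1 and PGR, the hormone receptors whose absence defines the tumour class, had at most 16 reads and 3 reads in any library, while VIM lay between 2643 and 4598 CPM. ERBB2, whose amplification the class also lacks, lay between 110 and 143 CPM, and RNA levels do not show copy number. With 1 library per condition there was no replicate check and no p-value was computed. Intervals in brackets are 95% intervals from read counting alone and do not hold the variation between cultures or library preparations. A gene was called higher or lower when its ratio of scaled counts was at least 2-fold and the interval of its log2 ratio excluded 0, and "rose" and "fell" are used for called genes alone. Counts of calls over the 11376 genes with a mean of 5 CPM or more are given as background.

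The summed level of the members was lowest in untreated cells and highest under indisulam. It was 2055 CPM (2030 to 2080) in the untreated library, 2235 CPM (2209 to 2261) with palbociclib, 2726 CPM (2701 to 2751) with indisulam and 2487 CPM (2462 to 2513) with the combination. The folds over untreated were 1.09, 1.33 and 1.21, and none of the 4 counting intervals overlapped. The order of the libraries was the same on both arms. The 40 members of 19p summed to 582, 612, 807 and 738 CPM in untreated, palbociclib, indisulam and combination cells, and the 112 members of 19q to 1473, 1623, 1919 and 1749 CPM. No small set of genes carried the sum, since the 5 members with the highest mean held between 12.7% and 14.7% of the member reads in each library.

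**Figure D1:**
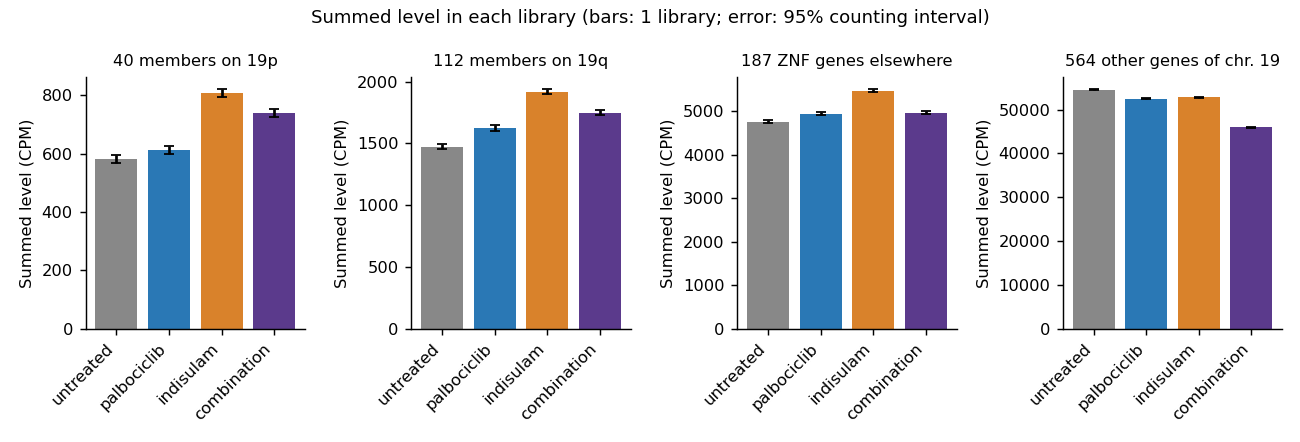
Summed level in CPM (vertical axis) in each of the 4 libraries for members on 19p, members on 19q, ZNF genes of other chromosomes and other protein-coding genes of chromosome 19, with 95% counting intervals as error bars and 1 library per bar. Members of both arms and ZNF genes of other chromosomes were lowest in the untreated library and highest with indisulam. The other genes of chromosome 19 were lowest with the combination at 45928 CPM.

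The rest of the chromosome did not show this order, whereas the ZNF genes of other chromosomes did. The 564 other protein-coding genes of chromosome 19 summed to 54574 CPM untreated, 52490 CPM with palbociclib, 52876 CPM with indisulam and 45928 CPM with the combination. The 187 ZNF genes of other chromosomes at 5 CPM or more summed to 4763, 4944, 5477 and 4967 CPM, which is 1.15 times the untreated level with indisulam. Among the members, those with a KRAB pattern went from 1476 CPM untreated to 2042 CPM with indisulam and 1925 CPM with the combination. The 24 without the pattern went from 579 CPM to 684 CPM with indisulam and stood at 563 CPM with the combination. The 97 genes under 5 CPM, which the choice of members left out, summed to 117 CPM untreated and to 158, 146 and 177 CPM with palbociclib, indisulam and the combination.

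Gene by gene, the untreated library was the lowest of the 4 for 86 of the 152 members (56.6%), against 29.2% of all genes. The indisulam library was the highest for 72 members (47.4%), against 24.7% of all genes. On 19p the untreated library was the lowest for 27 of 40 members and the highest for 1.

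Indisulam against untreated gave the largest shift of the family. The median log2 ratio of the members was 0.43, against 0.06 over all genes, 0.23 over the ZNF genes of other chromosomes and -0.02 over the other genes of chromosome 19. The ratio was above 0 for 125 members (82.2%), against 54.9% of all genes. At the 2-fold limit 13 members rose and 0 fell, where 5.88% of all genes were called higher and 4.77% lower. The count of members that rose is 8.55% of the family, and 5 of the 13 were under 5 CPM in the untreated library. The shift was thus mostly one of many changes below 2-fold. Among members under 20 CPM 8.26% rose, against 10.0% of all genes from 5 to 20 CPM. Of the 31 members at 20 CPM or more 3 rose (9.68%), against 4.17% of all genes at that level. Members with a KRAB pattern had a median of 0.47 and those without it a median of 0.22.

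Palbociclib against untreated gave a smaller shift. The median of the members was 0.12 against -0.03 over all genes, and 100 of 152 were above 0. At the 2-fold limit 8 members rose and 0 fell, where 3.85% of all genes were called higher and 3.47% lower. Of these 8 members 6 were under 5 CPM in the untreated library and passed the limit on the mean only through the treated libraries. Their count is thus no support for a rise of the family. Among members under 20 CPM 4.96% rose, against 7.70% of all genes from 5 to 20 CPM. Of the 31 members at 20 CPM or more 2 rose (6.45%), against 2.25% of all genes at that level. ZNF genes of other chromosomes had a median of 0.13, much like the members.

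With both drugs against untreated, 22 members rose and 3 fell, where 9.73% of all genes were called higher and 8.76% lower. The median was 0.33 against 0.04 over all genes. Members with a KRAB pattern had a median of 0.36 and 22 of them rose, whereas the median of those without it was -0.03 and 2 of them fell. The median GC content of the transcripts was 41.9% with the pattern and 59.0% without it, and its part in this difference was not tested. The other protein-coding genes of chromosome 19 had a median of -0.21 in the same comparison. Of the 22 members that rose, 11 were under 5 CPM in the untreated library and entered the list through the other libraries. The choice of members thus favours such genes. Among members under 20 CPM 14.9% rose, against 16.2% of all genes from 5 to 20 CPM. Of the 31 members at 20 CPM or more 4 rose (12.9%), against 7.05% of all genes at that level.

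All of these 3 comparisons rest on the same untreated library. The ratios of the combination to each single drug, which leave it out, were smaller. The median of the members in the combination against palbociclib was 0.11, against 0.06 over all genes. Here 3 members rose and 0 fell, where 6.69% of all genes were called higher and 5.58% lower, so the called share of the family (1.97%) was below that of all genes. In the combination against indisulam the median was -0.11 against -0.03, and 1 member rose and 0 fell, where 2.58% of all genes were called higher and 2.21% lower. The member that rose was ZNF229, a KRAB zinc finger gene with 3.27 CPM untreated, 6.38 CPM with palbociclib, 4.85 CPM with indisulam and 10.0 CPM with the combination. ZNF229 passed the 5 CPM mean only through the libraries with palbociclib. The median of the whole family lay above that of all genes against the untreated library, and near it between the combination and palbociclib. Indisulam against palbociclib, which also leaves out the untreated library, was not computed gene by gene. The summed level of the members was 2726 CPM (2701 to 2751) with indisulam and 2235 CPM (2209 to 2261) with palbociclib. Whether a difference in preparation of the untreated library had a part in the shifts against it was not tested, since no batch is named.

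**Figure D2:**
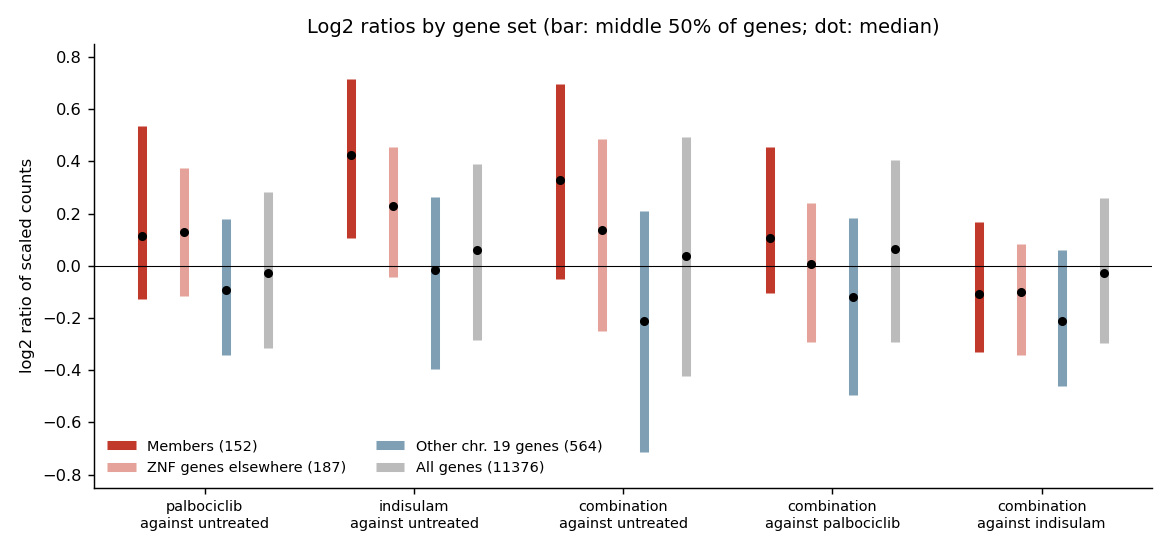
Log2 ratio of scaled counts (vertical axis) in the 5 comparisons for members, ZNF genes of other chromosomes, other protein-coding genes of chromosome 19 and all genes at 5 CPM or more; a bar spans the middle 50% of the genes and a dot marks the median. Members lie above the other sets with indisulam against untreated (median 0.43) and near all genes in the combination against palbociclib (0.11 against 0.06).

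The combination did not add up the shifts of the single drugs. On the log2 scale, the ratio of combination to untreated minus the ratios of both single drugs had a median of -0.28 over the members and 0.00 over all genes, and it was below 0 for 117 of 152 members against 49.8% of all genes. The ZNF genes of other chromosomes were much like the members, with a median of -0.23 and 74.9% below 0. It was below -1 with an interval that excluded 0 for 2 of 152 members, where 2.58% of all genes were, and above 1 for 0 members, where 2.53% of all genes were, so such departures were no more frequent in the family than elsewhere. The 2 were ZNF701 (-1.58, -2.21 to -0.96) and ZNF155 (-1.15, -1.81 to -0.49), and the next lowest was ZNF613 (-0.96, -1.63 to -0.29). ZNF493 had the highest value, 0.64 (0.01 to 1.26). ZNF155 was at 4.54 CPM untreated, 6.07 CPM with palbociclib, 7.36 CPM with indisulam and 4.39 CPM with the combination, so the combination returned to the untreated level. ZNF613 was at 3.42, 7.25, 5.68 and 6.13 CPM in the same order, with the untreated library alone standing low. ZNF493 was at 6.37, 5.59, 5.03 and 6.89 CPM, with both single drugs below the untreated and the combination libraries. The untreated level is a term of this measure, and a low untreated library by itself would make it negative.

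Each drug was measured by a pair of ratios that share no library, once without and once with the other drug. For indisulam, 93 of 152 members (61.2%) were above 0 in both ratios, against 42.0% of all genes, and 20 members were below 0 in both, against 32.1% of all genes. The members called higher in both were ZNF320 and ZNF468, 2 of 152, where 3.25% of all genes were called higher in both, and 0 members were called lower in both, where 2.67% of all genes were. For palbociclib, 53 members (34.9%) were above 0 in both ratios, close to the 31.3% of all genes. No member was called in both palbociclib ratios, where 1.15% of all genes were called higher and 0.923% lower in both. Across the members the 2 indisulam ratios had a Pearson correlation of 0.67 and the 2 palbociclib ratios one of 0.59, against 0.75 and 0.54 across all genes. These are correlations across genes of 4 shared libraries and not across replicates.

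ZNF320 (ENSG00000182986, chr19:52860851-52897693 on GRCh38, minus strand, 11 fingers) had the highest log2 ratio among the members in both ratios of indisulam and with the combination against untreated. Its level was 1.91 CPM untreated, 3.62 CPM with palbociclib, 10.6 CPM with indisulam and 14.1 CPM with the combination. Both libraries with indisulam lay above both without it. It passed the 5 CPM mean only through these 2 libraries, and of the 97 genes left out by that limit 6 had a higher log2 ratio with the combination against untreated than its 2.83. It rose 5.38-fold with indisulam against untreated (log2 ratio 2.43, 1.82 to 3.04) and 3.83-fold in the combination against palbociclib (1.94, 1.48 to 2.40). Palbociclib alone gave 0.90 (0.19 to 1.60) from few reads and was not called.

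ZNF468 (ENSG00000204604, chr19:52838010-52857649, minus strand, 10 fingers) lies next to ZNF320. It was at 10.8 CPM untreated, 11.3 CPM with palbociclib, 25.8 CPM with indisulam and 24.8 CPM with the combination, so the libraries fell into a lower pair without and a higher pair with indisulam. The log2 ratios of indisulam were 1.25 (0.97 to 1.52) without palbociclib and 1.12 (0.84 to 1.40) with it. Those of palbociclib were 0.07 (-0.27 to 0.40) and -0.06 (-0.26 to 0.15), with intervals that hold 0.

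ZNF701 (ENSG00000167562, chr19:52555822-52587174, plus strand, 7 fingers) was at 3.03 CPM untreated, 7.41 CPM with palbociclib, 12.2 CPM with indisulam and 9.82 CPM with the combination. It rose with each single drug, by 1.27 (0.73 to 1.81) and 1.99 (1.49 to 2.48) on the log2 scale, and the combination was below indisulam alone by -0.31 (-0.62 to -0.0028). In ZNF701 the untreated library stood apart below the other 3, and the gene passed the 5 CPM mean only through those.

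ZNF544 (ENSG00000198131, chr19:58228594-58277495, plus strand, 12 fingers) and ZNF530 (ENSG00000183647, chr19:57599885-57612722, plus strand, 13 fingers) rose with each drug and were highest with both. ZNF544 was at 10.99 CPM untreated, 23.4 CPM with palbociclib, 27.6 CPM with indisulam and 38.4 CPM with the combination. ZNF530 was at 2.39, 5.91, 5.74 and 8.29 CPM in the same order, and passed the 5 CPM mean only through the treated libraries. The log2 ratios of combination to untreated were 1.80 (1.53 to 2.07) for ZNF544 and 1.76 (1.19 to 2.34) for ZNF530. ZNF544 shared none of its 65-base windows with another ZNF gene, nor did ZNF530.

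The 3 members that fell with the combination were ZNF546, ZNF579 and ZNF446. ZNF546, a KRAB gene with 22 fingers, was at 8.28 CPM untreated, 5.12 CPM with palbociclib, 4.25 CPM with indisulam and 3.69 CPM with the combination (log2 ratio of combination to untreated -1.15, -1.63 to -0.68). Each drug library lay below the untreated one. ZNF579, without a KRAB pattern, was at 20.8, 13.7, 17.5 and 9.54 CPM (-1.12, -1.42 to -0.82). ZNF446, in which no KRAB pattern was found, was at 19.4, 12.4, 12.7 and 8.98 CPM (-1.10, -1.41 to -0.79). ZNF586 was the next lowest at -0.88 (-1.36 to -0.40) and was not called.

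The 5 members with the highest mean level did not reach the 2-fold limit in any comparison. ZNF146, which consists of fingers without a KRAB domain, was at 96.9 CPM untreated, 102 CPM with palbociclib, 126 CPM with indisulam and 104 CPM with the combination. ZNF121 was at 77.3, 55.7, 106 and 87.2 CPM, and was higher with indisulam both without palbociclib (0.46, 0.34 to 0.57) and with it (0.65, 0.51 to 0.78). ZNF317 was at 34.6, 36.4, 55.9 and 56.2 CPM and also had both indisulam ratios alike, 0.69 (0.52 to 0.85) and 0.63 (0.46 to 0.79). ZNF561 was at 32.8, 44.5, 54.8 and 53.3 CPM. ZNF587 was at 56.8, 45.7, 56.2 and 55.4 CPM, and 20.4% of its 65-base windows occur in another ZNF gene, so its level is uncertain.

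ZNF274 is named for its known role, outside the rule for named genes, because it binds the ends of zinc finger genes and brings SETDB1 to them. It was at 23.2 CPM untreated, 23.7 CPM with palbociclib, 34.8 CPM with indisulam and 34.6 CPM with the combination. Its log2 ratios of indisulam were 0.59 (0.38 to 0.79) and 0.54 (0.34 to 0.75), below the 2-fold limit. ZNF473, a part of the U7 particle that processes histone mRNA and likewise chosen after its values were seen, was at 12.3, 18.4, 23.3 and 18.2 CPM in the order untreated, palbociclib, indisulam, combination.

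The silencing machinery that KRAB zinc fingers recruit was read from 28 genes of the KAP1 complex and its partners. None of the 28 was called in any of the 5 comparisons, where between 2.21% and 9.73% of all genes were called in a given direction. Whether the list differs from all genes in this was not tested, and the count is not read as a result. Their medians lay between -0.07 and 0.08. TRIM28, which binds the KRAB domain, was at 243 CPM untreated, 191 CPM with palbociclib, 252 CPM with indisulam and 180 CPM with the combination. SETDB1, the methyltransferase, was at 51.5, 44.05, 55.3 and 38.5 CPM. TRIM28 and SETDB1 were thus lower in the libraries with palbociclib than in those without it, but the list did not move together. In both palbociclib ratios 12 of the 28 were below 0 (42.9%, against 36.9% of all genes). The 5 above 0 in both (17.9%, against 31.3% of all genes) included HDAC1, SUV39H1 and SUV39H2. The 6 zinc finger genes of chromosome 19 with other symbols that reached 5 CPM gave 1 gene that rose and 1 that fell in the combination against untreated. The gene that rose was ZFP28, a KRAB zinc finger gene (4.46 to 10.3 CPM), and the gene that fell was ZFP36, which is no C2H2 factor but an mRNA decay protein (115 to 32.5 CPM).

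Clusters were formed from genes that start within 500 kb of each other, and 8 clusters held 5 members or more. Indisulam against untreated gave medians between 0.30 and 0.59 in 7 of them and 0.04 in the eighth. The highest were the cluster from ZNF264 to ZNF446 at the end of 19q (57.19 to 58.48 Mb, 31 members, median 0.59) and the cluster from ZNF175 to ZNF331 (51.57 to 53.58 Mb, 27 members, median 0.58). In the combination against palbociclib, the ZNF175 to ZNF331 cluster kept a median of 0.28, with 21 of 27 members above 0, whereas that of the ZNF264 to ZNF446 cluster was 0.09. The cluster from ZNF653 to ZNF791 on 19p had all 8 members above 0 in both indisulam ratios, with medians of 0.44 and 0.33, and 0 called.

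The cluster from ZNF101 to ZNF254, which runs to the end of 19p (19.67 to 24.13 Mb), had the highest median of palbociclib of the 8 clusters. Its 14 members summed to 99.9 CPM untreated, 147 CPM with palbociclib, 132 CPM with indisulam and 166 CPM with the combination. The median log2 ratio of palbociclib was 0.48 against untreated and 0.34 in the combination against indisulam, and 11 of the 14 members were above 0 in both. In the other 7 clusters the second of these medians lay between -0.37 and -0.05. With the combination, 14 of 14 members were above the untreated library, and 4 of them rose. Of all genes 9.73% were called higher, and of all genes from 5 to 20 CPM 16.2%. ZNF85 and ZNF100, among these 4, were under 5 CPM in the untreated library and passed the limit on the mean only through other libraries. The choice of members favours such genes, so the count describes the cluster only.

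The cluster from ZNF628 to ZNF835 on 19q (55.48 to 56.67 Mb) went the other way with the combination. Its 9 members summed to 163 CPM untreated, 156 CPM with palbociclib, 163 CPM with indisulam and 120 CPM with the combination. The median log2 ratio of combination to untreated was -0.52, with 2 of 9 above 0. Among its members ZNF581 was at 39.6, 33.3, 39.2 and 21.8 CPM and ZNF865 at 19.4, 19.6, 19.9 and 12.1 CPM, both low in the combination library alone. ZNF470, with a KRAB pattern, rose from 3.50 CPM to 9.33 CPM in the same cluster. Its members had a median GC content of 68.7%, against 42.4% over all members, and 7 of the 9 lacked a KRAB pattern.

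**Figure D3:**
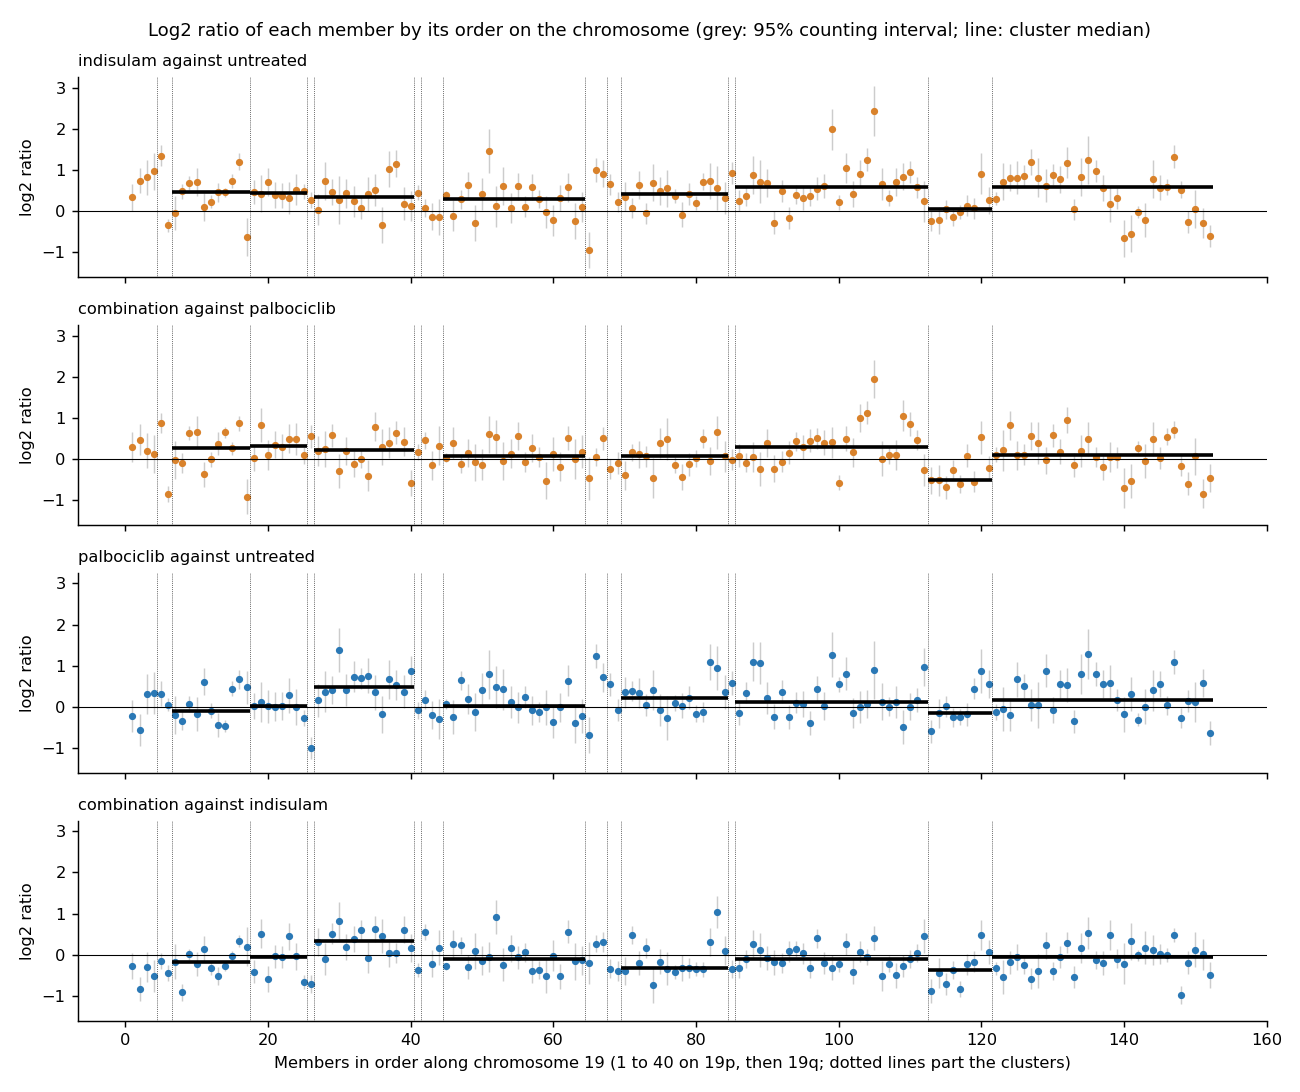
Log2 ratio (vertical axis) of each of the 152 members in their order along chromosome 19 (horizontal axis), for both ratios of indisulam and both of palbociclib; grey lines are 95% counting intervals, dotted lines part the clusters and black lines are medians of clusters with 5 members or more. Indisulam against untreated is above 0 over most of the chromosome, whereas palbociclib is above 0 in both ratios in the cluster at the end of 19p (medians 0.48 and 0.34).

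The start regions of these genes also share sequence. RefSeq promoter windows (GRCh38.p14, 250 bases before to 50 after the start) were found for 139 of the 152 members. In 72 of them (51.8%) at least 1 run of 20 bases also occurs in the promoter of another gene at 5 CPM or more, against 22.8% of the ZNF genes of other chromosomes and 19.6% of all genes. Members that share such a run, directly or through another member, formed 4 groups of 5 genes or more. Their largest are a group of 11 on 19q (ZNF808, ZNF701, ZNF83, ZNF611, ZNF468, ZNF320, ZNF816, ZNF845, ZNF525, ZNF765 and ZNF761) and a group of 10 on 19p (ZNF85, ZNF430, ZNF714, ZNF431, ZNF708, ZNF493, ZNF100, ZNF91, ZNF675 and ZNF254). The 150 bases before the start are shown for 3 genes of each group, because the medians of the 2 groups lay apart with palbociclib and with indisulam. Sequences run 5′ to 3′ in the direction of transcription, and capitals mark bases inside runs of 20 that another member shares.
ZNF320, chr19:52897695-52897844, minus strand: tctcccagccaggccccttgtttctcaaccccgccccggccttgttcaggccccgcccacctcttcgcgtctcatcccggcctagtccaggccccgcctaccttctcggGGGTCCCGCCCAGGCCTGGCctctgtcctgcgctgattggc
ZNF468, chr19:52857620-52857769, minus strand: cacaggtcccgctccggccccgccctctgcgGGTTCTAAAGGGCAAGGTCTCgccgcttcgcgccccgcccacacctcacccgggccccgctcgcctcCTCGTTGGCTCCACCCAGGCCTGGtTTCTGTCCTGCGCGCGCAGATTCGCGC
ZNF701, chr19:52570137-52570286, plus strand: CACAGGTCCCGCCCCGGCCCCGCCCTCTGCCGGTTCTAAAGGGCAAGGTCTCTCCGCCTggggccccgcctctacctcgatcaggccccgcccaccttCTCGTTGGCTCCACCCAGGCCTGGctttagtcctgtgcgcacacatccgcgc
ZNF85, chr19:20923101-20923250, plus strand: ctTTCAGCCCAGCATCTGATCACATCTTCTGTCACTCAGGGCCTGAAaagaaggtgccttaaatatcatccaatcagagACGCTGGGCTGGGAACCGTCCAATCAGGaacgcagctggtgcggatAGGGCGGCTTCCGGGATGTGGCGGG
ZNF91, chr19:23395472-23395621, minus strand: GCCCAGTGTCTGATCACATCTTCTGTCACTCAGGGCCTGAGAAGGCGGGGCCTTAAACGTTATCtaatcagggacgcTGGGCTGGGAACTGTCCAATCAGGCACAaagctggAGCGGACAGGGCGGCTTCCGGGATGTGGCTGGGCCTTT
ZNF254, chr19:24087037-24087186, plus strand: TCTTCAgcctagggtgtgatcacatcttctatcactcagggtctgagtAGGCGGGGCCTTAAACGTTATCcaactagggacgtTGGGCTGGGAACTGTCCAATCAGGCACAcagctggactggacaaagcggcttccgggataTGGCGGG
The shared runs cover 83 of the 150 bases in ZNF701 and 130 in ZNF91, but only 20 in ZNF320. The windows of the 19q group shown are 70.0% to 72.7% GC and those of the 19p group 55.3% to 58.7%.

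The 19q group had its higher medians with indisulam. Its 11 members summed to 115 CPM (109 to 121) untreated, 142 CPM (135 to 148) with palbociclib, 200 CPM (193 to 207) with indisulam and 184 CPM (177 to 191) with the combination. The median log2 ratio of indisulam against untreated was 0.84, with 11 of 11 above 0 and 4 that rose (5.88% of all genes were called higher). It was 0.46 in the combination against palbociclib, with 10 of 11 above 0 and 3 that rose (6.69% of all genes). The group was put together after ratios of these libraries had been seen, so these counts describe it and are no support for it. The medians of palbociclib were 0.13 and -0.20. All 3 members called higher in the combination against palbociclib belong to this group. The last of them, ZNF525, was at 8.76 CPM untreated, 6.22 CPM with palbociclib, 15.7 CPM with indisulam and 13.0 CPM with the combination. ZNF765 was at 11.9, 11.9, 23.1 and 21.5 CPM, just under the limit. ZNF83, in which no KRAB pattern was found, stood apart from the group at 31.9, 46.7, 37.0 and 31.4 CPM, highest with palbociclib alone. Between 0% and 15.7% of the 65-base windows of these genes occur in another ZNF gene, with ZNF83 lowest and ZNF808 highest. Reads of 1 gene may thus have been lost or counted for another.

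The 19p group had its higher medians with palbociclib. Its 10 members summed to 71.8 CPM (67.2 to 76.7) untreated, 112 CPM (106 to 118) with palbociclib, 94.2 CPM (89.6 to 99.0) with indisulam and 117 CPM (111 to 122) with the combination. The median log2 ratio of palbociclib was 0.68 against untreated and 0.28 in the combination against indisulam, each with 9 of 10 above 0. Those of indisulam were 0.26 and 0.10, no higher than the 0.43 and 0.11 of all members. With palbociclib against untreated 1 of the 10 rose (3.85% of all genes were called higher), and with indisulam against untreated 2 rose (5.88% of all genes). ZNF85 was at 2.95 CPM untreated, 7.80 CPM with palbociclib, 3.59 CPM with indisulam and 6.34 CPM with the combination, and rose with palbociclib (1.38, 0.84 to 1.92). It passed the 5 CPM mean only through the libraries with palbociclib. ZNF431 was at 14.8, 24.0, 15.7 and 24.0 CPM, so that both libraries with palbociclib were alike and above both without it. ZNF91 and ZNF100 differed from these and followed indisulam, with ZNF91 at 8.04, 11.7, 17.95 and 18.4 CPM and ZNF100 at 4.54, 7.25, 9.27 and 9.54 CPM. These 10 genes share at most 1.96% of their windows with other ZNF genes.

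**Figure D4:**
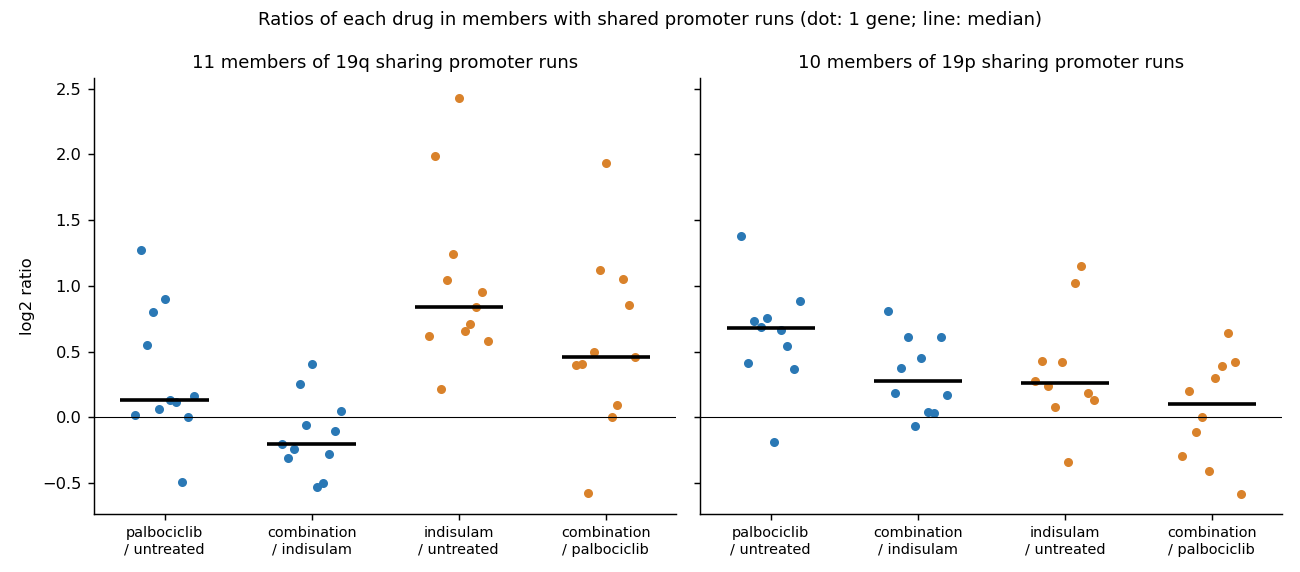
Log2 ratio (vertical axis) of each member of the 2 largest groups with shared promoter runs, for both ratios of palbociclib (blue) and both of indisulam (orange); a dot is 1 gene and a line the median. The 19q group is high for indisulam (0.84 and 0.46) and the 19p group for palbociclib (0.68 and 0.28).

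The 78 members whose promoter shares no run with another member had medians of 0.05 with palbociclib, 0.34 with indisulam and 0.15 with the combination against untreated, and 0.10 in the combination against palbociclib. The groups were formed after the ratios of these libraries had been seen by an analysis of the whole series, and the difference between them was not tested.

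Short sequence words were counted on both strands of the 300-base windows as a description. The word CCGGAAG, as in sites of ETS factors, occurred in 68 of the 139 member promoters (48.9%), against 36.4% of ZNF promoters elsewhere, 20.6% of promoters of genes at 5 CPM or more and 10.7% of all promoters. CCAAT occurred in 50.4% of member promoters against 37.2% of those of expressed genes, GGGCGG in 60.4% against 71.0%, TATAAA in 2.16% against 5.42% and CACGTG in 4.32% against 10.2%. Members with and without CCGGAAG had medians of 0.39 and 0.45 with indisulam against untreated.

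GC content moved with the ratios over all genes and is low in the members. The canonical transcripts of the members had a median GC content of 42.4%, against 47.6% over all genes and 60.6% over the other protein-coding genes of chromosome 19. Across 11318 genes, the Pearson correlation of GC content with the log2 ratio was -0.14 with indisulam against untreated, -0.21 with the combination against untreated and -0.24 with the combination against palbociclib. Within genes of like GC content the members still lay above the others with indisulam against untreated. Their medians were 0.42 against 0.21 below 40% GC, 0.48 against 0.11 from 40% to 44% and 0.69 against 0.08 from 44% to 48%, and -0.03 against -0.04 at 60% and more. The order turned at the low end in the combination against palbociclib, with 0.13 for the 45 members below 40% GC and 0.25 for the other genes there. It also turned from 52% to 56% GC, with -0.22 for 3 members against -0.01, and at 60% and more, with -0.49 for 12 members against -0.24. The 12 members at 60% GC or more were at -0.60 with the combination against untreated, below the -0.25 of other genes of that content.

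**Figure D5:**
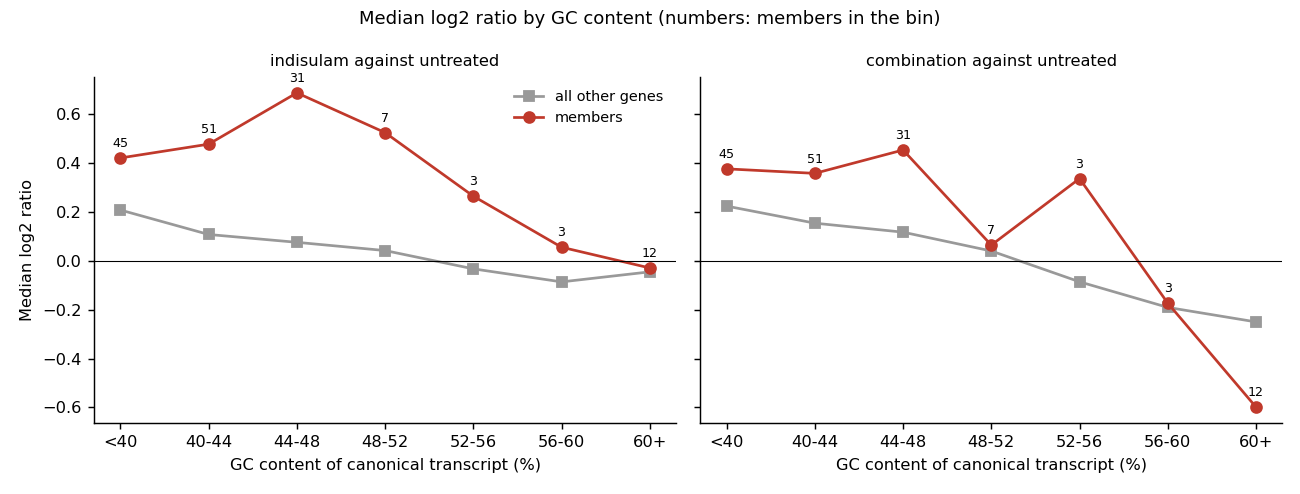
Median log2 ratio (vertical axis) of members and of all other genes at 5 CPM or more by GC content of the canonical transcript (horizontal axis, percent), with the number of members beside each point. With indisulam against untreated members lie above the other genes in the bins under 48% GC, and the 12 members at 60% or more lie at -0.03.

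The shift was not limited to genes with an annotated neighbour on the same stretch of DNA. Another gene overlaps 109 of the members, and the 43 without any overlap had a median log2 ratio of 0.42 with indisulam and 0.34 with the combination against untreated. Members under 20 CPM had a median of 0.46 with indisulam and those at 20 CPM or more 0.37. With the combination against untreated these medians were 0.35 and 0.09. Members with 1 to 9 fingers had a median of 0.34 with indisulam, those with 10 to 14 fingers 0.48 and those with 15 or more 0.43.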

How the data were processed

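The authors deposited 1 table of counts per library, with reads per Ensembl gene that are not normalized; the submitters' processing notes name TopHat2 2.1, HTSeq and GRCh38. The annotation release and the strand setting of the counting are not given in the sources used here, so reads of overlapping or antisense genes cannot be told apart with certainty. The study methods describe stranded poly(A) libraries. Tallies per chromosome of reads outside genes or at several places were kept apart. Counts were divided by the library total and multiplied by the mean total, and 1 scaled count was added before log2 ratios. Intervals are Poisson delta-method intervals, exact binomial for summed levels, and cover counting error only. Symbols, positions, fingers and the KRAB pattern came from GENCODE 44, and the arms were parted at the widest gap between genes. The calculations were tested on simulated counts. Groups were taken from the labels. The named members are the 5 with the highest mean, those called the same way in both ratios of a drug, the 4 highest and 4 lowest with the combination, the 3 largest departures each way with an interval that excluded 0, and 3 on each side of the 5 CPM limit. The members and lists were chosen with earlier results of these data known. Alternatives used R 4.3.3, edgeR 4.0.16 (TMM, upper quartile) and DESeq2 1.42.0 (size factors only), with Python 3.11.15 for the rest.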

Additional observations from a re-analysis of the deposited data

Results flagged for a closer look

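Some members moved in opposite directions under the same drug without and with the other drug, with both counting intervals on opposite sides of 0. The difference was not tested, since each condition is 1 library. For palbociclib there were 5 of 152 (3.29%), against 9.69% of all genes and 4.94% of genes from 5 to 20 CPM, so such moves were no more frequent among the members. Each was higher without and lower with indisulam. ZNF701 had log2 ratios of 1.27 against untreated and -0.31 in the combination against indisulam. ZNF473 had 0.59 and -0.35, ZNF574 had 0.55 and -0.34, ZNF83 had 0.55 and -0.24, and ZNF304, a KRAB gene known to silence the INK4-ARF locus, had 0.50 and -0.24. For indisulam there were 2 (1.32%), against 7.52% of all genes and 3.77% of genes from 5 to 20 CPM. They were ZNF708 with 0.42 against untreated and -0.40 in the combination against palbociclib, and ZNF83 with 0.21 and -0.57. ZNF83 was thus highest with palbociclib alone (46.7 CPM) and at like levels in untreated (31.9 CPM) and combination cells (31.4 CPM).

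Reads on chromosome 19 that fell in no annotated gene were not used above. Scaled to CPM they stood at 240 (untreated), 262 (palbociclib), 303 (indisulam) and 284 (combination), the same order of libraries as the summed members. Over all chromosomes such reads stood at 6807, 7368, 7692 and 7420 CPM in the same order of conditions.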

How the results depend on the processing

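The median of the members minus that of all genes at the same level limit was 0.31 to 0.42 with indisulam and 0.14 to 0.33 with the combination against untreated over the alternatives run, and -0.014 to 0.11 with the combination against palbociclib. Another scaling moves members and all genes alike, so it cannot change this difference. With TMM factors the median log2 ratios of the members were 0.35 with indisulam, 0.24 with the combination against untreated, 0.011 with the combination against palbociclib and -0.13 with the combination against indisulam. With median-of-ratios factors the first 3 of these were 0.36, 0.26 and 0.030, and with upper-quartile factors the 4 were 0.36, 0.29, 0.060 and -0.077. The share of members above 0 in the combination against palbociclib was 65.8% in the main scaling. It was 52.0% with TMM, 55.9% with median-of-ratios and 59.9% with upper-quartile factors. The count of members above 0 in both indisulam ratios thus depends on the scaling. Totals without mitochondrial genes gave -0.085 for the combination against indisulam, and summed levels of 2185, 2411, 2867 and 2662 CPM in untreated, palbociclib, indisulam and combination cells. Each of the 3 factor scalings called 1 member lower with indisulam, where 5.57% to 5.64% of all genes were called lower. TMM called 1 lower with the combination against palbociclib, where 6.81% of all genes were.

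Centring each gene on all genes of like GC content in 20 bins, an alternative added after seeing the data, gave medians of 0.15 with palbociclib, 0.31 with indisulam and 0.14 with the combination against untreated, and turned that of the combination against palbociclib to -0.014. It called 1 member lower with indisulam, where 5.25% of all genes were called lower. With the combination against untreated it called 12 higher (7.89%, against 8.66% of all genes) and 1 lower (8.49% of all genes). With the combination against palbociclib it called 1 higher and 1 lower, where 5.36% and 5.63% of all genes were. In the combination against palbociclib TMM turned the medians of 19q (-0.016), of the ZNF264 to ZNF446 cluster (-0.0048) and of the ZNF565 to ZNF573 cluster (-0.017), and the GC centring turned the same medians to -0.063, -0.014 and -0.13.

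The list mattered for palbociclib. With the 198 genes at a mean of 1 CPM or more the median was 0.17 with palbociclib and -0.067 with the combination against indisulam. With the 91 at 10 CPM or more the medians were 0.056 with palbociclib, 0.45 with indisulam, 0.30 with the combination against untreated and -0.20 with the combination against indisulam. With all 239 genes that had a read they were 0.17 with palbociclib, 0.36 with the combination against untreated, 0.15 with the combination against palbociclib and -0.019 with the combination against indisulam. The 43 members with no overlapping gene gave -0.16 for the combination against indisulam. The 109 members sharing under 1% of their windows, also added after seeing the data, gave 0.077 with palbociclib, 0.37 with indisulam, 0.27 with the combination against untreated and -0.18 with the combination against indisulam.

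Counts of called members changed with the level limit, and so did their share of the list. The order here is palbociclib, indisulam and combination against untreated, then combination against palbociclib and against indisulam. The list at 1 CPM gave 18, 26, 39, 10 and 11 higher (9.09%, 13.1%, 19.7%, 5.05% and 5.56%) and 0, 1, 3, 3 and 1 lower. Of all genes at 1 CPM or more 5.78%, 8.31%, 12.9%, 9.53% and 5.02% were called higher and 4.87%, 6.66%, 10.5%, 7.34% and 3.1% lower. The list without a limit gave 18, 27, 45, 11 and 14 higher (7.53%, 11.3%, 18.8%, 4.6% and 5.86%) and 0, 1, 4, 3 and 1 lower. Of all genes with a read 3.35%, 4.69%, 7.96%, 6.04% and 3.77% were called higher and 2.86%, 4.03%, 5.95%, 4.26% and 1.82% lower. The list at 10 CPM gave 2, 8 and 10 higher against untreated and 0 higher against indisulam, against 2.89%, 4.88%, 8.12% and 1.68% of all genes at 10 CPM or more. Members with no overlapping gene gave 2, 3, 4, 0 and 0 higher (4.65%, 6.98%, 9.3%, 0% and 0%). Those sharing under 1% of windows gave 5, 7, 13 and 0 higher in the earlier 4 comparisons (4.59%, 6.42%, 11.9% and 0%). Of all genes 3.85%, 5.88%, 9.73%, 6.69% and 2.58% were called higher. A limit of 1.5-fold called 29, 54, 51, 18 and 6 higher and 4, 4, 8, 7 and 10 lower, against 11.1%, 15.6%, 21.1%, 16.3% and 9.19% of all genes higher and 11.3%, 12.8%, 18.5%, 13.2% and 9.46% lower. A pseudocount of 5 called 0 higher against indisulam, where 2.44% of all genes were. No paired analysis was possible because each condition is 1 library, and no library could be left out. At these depths a member at 5 CPM has 62.8 to 83.6 reads, which limits what its ratio can show.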

Other observations

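The genes left out by the 5 CPM limit were described as well. The 46 zinc finger genes of chromosome 19 between 1 and 5 CPM had median log2 ratios of 0.41 with palbociclib, 0.33 with indisulam and 0.56 with the combination against untreated. In the combination against palbociclib their median was -0.03, and in the combination against indisulam it was 0.12. Among the zinc finger genes with other symbols, ZIK1 was under the limit too, with 0.796 CPM untreated, 3.23 CPM with palbociclib, 5.09 CPM with indisulam and 9.89 CPM with the combination. ZIM2, ZIM3, PEG3 and ZSCAN1 had 0 reads in each of the 4 libraries.

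Reads of chromosome 19 that aligned at more than 1 place, which no gene received, stood at 1668 CPM (untreated), 1530 CPM (palbociclib), 1724 CPM (indisulam) and 1477 CPM (combination). Those in more than 1 gene stood at 1655, 1716, 1523 and 1519 CPM in the same order.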
